A study of Homo sapiens with 3 samples.

Results

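DNA methylation at CpG sites is laid down by writers, removed stepwise by erasers and recognised by readers. The 9 genes described here were DNMT1, DNMT3A, DNMT3B, UHRF1 and UHRF2 on the writing side, TET1, TET2 and TET3 as erasers, and MBD1 as a reader. They were taken by symbol from an RNA-seq table of 57736 gene rows, where they filled 10 rows. TET3 stood in 2 rows, and the second, ENSG00000255989, held 2, 1 and 1 counts in the 3 libraries and did not pass the filter on low counts. All 9 genes passed that filter through their other rows.

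The RNA came from TOV21G, a human cell line grown from an ovarian clear cell tumour. There were 3 libraries of total RNA, all with the line's ARID1A mutation, which affects a SWI/SNF remodelling subunit. WT cells (n = 1) had the normal HDAC2 genotype, and HDAC2 knockdown cells (n = 2) received a lentiviral hairpin against HDAC2, shRNA 1 or shRNA 2, with 1 library each. HDAC2 is a class I histone deacetylase. A control virus for WT, the length of the knockdown and separate cultures are not given in the labels. The p-values therefore measure only the spread between the hairpin libraries, which may be technical. That spread is mostly pooled over genes, as each gene has 1 residual degree of freedom against a prior of 18.9 from all genes. The fit takes WT, with 1 library, to vary as much as the hairpin libraries do.

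DNMT1 is the maintenance methyltransferase. It copies methylation onto the new strand behind the replication fork, where UHRF1 recognises hemimethylated CpG and brings it in. DNMT3A and DNMT3B methylate sites that carried no mark, and the TET enzymes oxidise 5-methylcytosine so that it can be diluted by replication or cut out and replaced. DNMT1 protein is also known to bind HDAC1 and HDAC2, so writers of methylation and histone deacetylases meet in the same complexes.

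The libraries held between 10138479 and 11398791 counts. HDAC2 itself stood at 105 CPM (the count relative to library size, with TMM scaling between libraries) in WT and at 31.7% and 48.9% of that with shRNA 1 and shRNA 2, so the target was lower in both. Of the markers of the line, PAX8 was abundant, with 263 CPM in WT, whereas NAPSA had at most 4 counts and KRT7 at most 20. Leukocyte markers summed to between 0.706 and 2.71 CPM, and fibroblast and endothelial markers to between 5.92 and 9.45 CPM, with CD3E, HBB, COL3A1 and LUM at 0 counts throughout. The differences between knockdown and WT were related to the GC content of the transcripts, with a Spearman rho of −0.48 across 14215 genes, which are not independent replicates. DNMT1 and UHRF1 had more GC than 72.7% and 70.2% of these genes, and DNMT3A, DNMT3B, TET3 and MBD1 than 62.9% to 68.3%. UHRF2, TET1 and TET2 had more than 19.6% to 30.5%. Calls among the 9 genes and the pathway lists, and changes of the 9 that moved by over 1.5 times or turned, are therefore also described with a smooth GC trend removed.

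The 2 genes that fell were DNMT1 and UHRF1, the pair that keeps methylation through cell division, and none of the 9 rose. The other 7 did not pass the test. Across all 14524 genes tested, 7.72% were called in either direction and 3.76% were lower and 3.96% higher in knockdown cells (quasi-likelihood test of edgeR, Benjamini-Hochberg adjusted p below 0.05). By DESeq2's Wald test DNMT1 and UHRF1 also fell and no member rose, against 3.67% of genes called, 1.86% lower and 1.81% higher. With a GC spline of 6 degrees of freedom removed, 0 members passed edgeR, against 0.448% of genes called, 0.275% lower and 0.172% higher. The median log2 change was −0.02 over the 9 genes (−0.13 with that spline removed) and 0.01 over all genes tested. Knockdown values lay on one side of WT in both hairpin libraries for 7 of the 9 genes, 4 below and 3 above, against 79.1% of all genes tested.

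**Figure D1:**
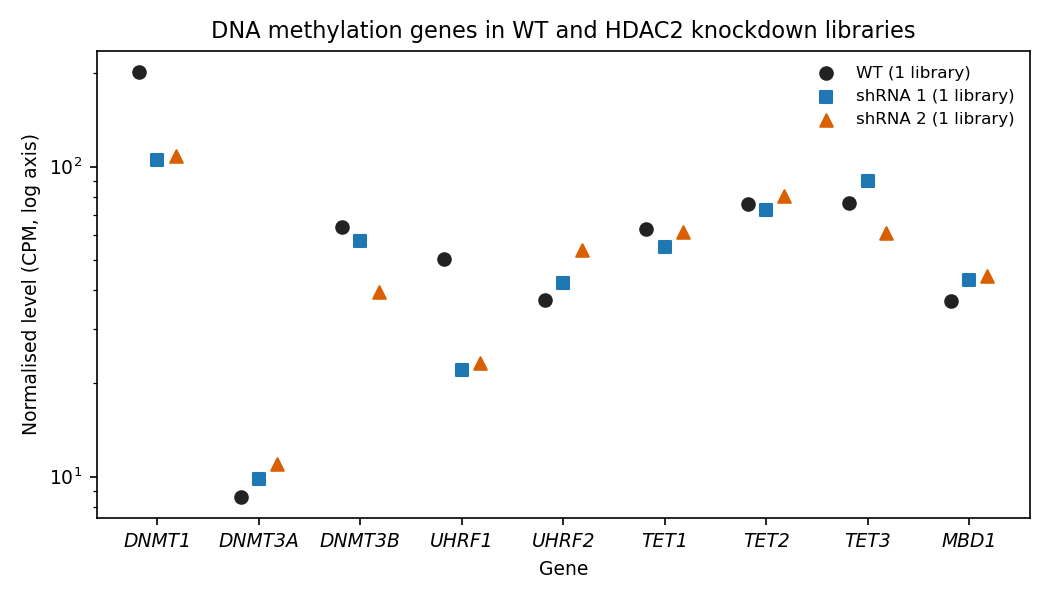
Normalised level (CPM, log axis) of the 9 genes in the WT library (black circles), the shRNA 1 library (blue squares) and the shRNA 2 library (orange triangles), 1 point per library. DNMT1 and UHRF1 show a WT point well above a close pair of knockdown points, while TET3 has its WT point between them.

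DNMT1 (ENSG00000130816) lies on the minus strand of chromosome 19, at chr19:10133345-10231286 in GRCh38. It had 2018 counts in WT, 1203 with shRNA 1 and 1230 with shRNA 2, which were 202, 105 and 109 CPM. The hairpin libraries were close to each other and far from WT, at 51.8% and 53.7% of its level, a mean of 52.8% ± 1.33 (SD, n = 2). DNMT1 changed by −0.92 ± 0.17 on the log2 scale (SE; edgeR adjusted p = 0.00198). Part of its span overlaps S1PR2, on the same strand. With the GC spline removed, the change was −0.74 and did not pass (adjusted p = 0.0734 by edgeR). Of 4 other forms of the GC correction, all tried after seeing that result, 3 kept the call, with adjusted p by edgeR of 0.0286 (straight line), 0.0365 (spline of 3 degrees of freedom) and 0.0134 (trend of the group contrast alone), and a spline of 15 degrees of freedom did not (0.0521). The log2 change stayed between −0.77 and −0.74 under these 5 forms, so the call depended on the form.

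UHRF1 (ENSG00000034063 in the table, ENSG00000276043 in GENCODE 29) lies on the same chromosome, on the plus strand at chr19:4903080-4962154. It encodes the ubiquitin ligase that reads hemimethylated CpG and recruits DNMT1. It had 501 counts in WT, 253 with shRNA 1 and 263 with shRNA 2, or 50.2 CPM in WT and 22.6 ± 0.837 CPM in knockdown (SD, n = 2). Both hairpin libraries stood below WT, at 43.9% and 46.3% of it, and their mean was 45.1% ± 1.67 (SD, n = 2). UHRF1 changed by −1.15 ± 0.18 on the log2 scale (SE; edgeR adjusted p = 7.29e-04). It became −0.99 with the GC spline removed and did not pass (adjusted p = 0.0553 by edgeR). The 4 other forms gave between −1.01 and −0.99 and kept the call, with adjusted p by edgeR from 0.00332 to 0.0338.

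UHRF1 shares 18.7% of its 75-base sequences with other transcripts, mostly those of the processed pseudogene AC112777.1. That row had 14 counts in WT, 0 with shRNA 1 and 4 with shRNA 2, few beside those of UHRF1. When the pseudogene was added to UHRF1, an alternative chosen after seeing the data, the sums were 515, 253 and 267 and the log2 change was −1.18. DNMT1 shared 0.115% of its sequences with other genes and the remaining members at most 0.058%.

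DNMT1 and UHRF1 also have E2F-type letters in their promoters, and these are shown because both genes fell. Promoter windows of 300 bases, 250 before to 50 after each start site, were read from RefSeq (GRCh38.p14) for all 9 genes, 20 windows in all. The E2F pattern searched was TTTCCCGC, TTTGGCGC, TTTCGCGC or TTTGCCGC on either strand, and 3.31% of the 35116 windows of the table hold it. Of the 20 windows 3 held it, the single DNMT1 window and 2 of the 3 of UHRF1. Each window below is on the strand of its gene, with the E2F match in capitals.
DNMT1, chr19:10194904-10195203, minus strand: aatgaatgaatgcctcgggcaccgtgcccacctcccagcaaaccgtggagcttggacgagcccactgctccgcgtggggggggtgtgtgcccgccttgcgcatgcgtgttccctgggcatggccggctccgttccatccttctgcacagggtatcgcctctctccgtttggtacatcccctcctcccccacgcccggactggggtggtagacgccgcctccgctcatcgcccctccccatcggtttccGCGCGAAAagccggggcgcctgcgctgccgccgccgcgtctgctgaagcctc
UHRF1, chr19:4909251-4909550, plus strand: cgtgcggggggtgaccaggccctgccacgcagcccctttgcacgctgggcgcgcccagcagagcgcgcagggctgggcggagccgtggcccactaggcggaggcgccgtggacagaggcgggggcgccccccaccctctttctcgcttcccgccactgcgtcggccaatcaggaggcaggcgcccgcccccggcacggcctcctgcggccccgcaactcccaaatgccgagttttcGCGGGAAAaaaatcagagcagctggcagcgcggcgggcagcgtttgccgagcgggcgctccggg
UHRF1, chr19:4909894-4910193, plus strand: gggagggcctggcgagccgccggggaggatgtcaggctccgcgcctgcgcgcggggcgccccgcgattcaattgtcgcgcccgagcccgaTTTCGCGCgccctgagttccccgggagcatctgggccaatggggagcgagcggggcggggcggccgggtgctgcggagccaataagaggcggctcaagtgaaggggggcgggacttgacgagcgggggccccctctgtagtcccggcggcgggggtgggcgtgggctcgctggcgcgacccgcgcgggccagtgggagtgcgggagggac

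In the DNMT1 window the match, TTTCGCGC read on the other strand, begins 2 bases before the start site and runs across it. In the first UHRF1 window TTTCCCGC on the other strand begins 14 bases before the start, and in the second TTTCGCGC has its first base at −160. These UHRF1 windows also hold the CCAAT pentamer, which 34.6% of all windows hold on either strand, and neither gene's windows hold TTTGAA, a cell cycle homology region letter pattern found in 15.2%. These are matches of letters and not measured binding. The E2F patterns all contain CG, and the share of 3.31% over all windows was not matched for CpG content. Any part of E2F in the changes of the 2 genes was not tested. CpG dinucleotides numbered 30 in the DNMT1 window and 36 to 46 in those of UHRF1, against a median of 14 over the table. The single DNMT3B window, chr20:32779602-32779901, had 3, the fewest among the members' windows. It lies inside the gene's GENCODE span, which starts at chr20:32762385, so the sequence at that start was not read. The windows of DNMT1 and UHRF1 also lie inside their spans.

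UHRF2 (ENSG00000147854, chr9:6413151-6507054, plus strand) is the paralog of UHRF1 and is known to bind 5-hydroxymethylcytosine, but it does not replace UHRF1 in maintenance. Its counts were 372 in WT, 483 with shRNA 1 and 610 with shRNA 2, which were 37.3, 42.1 and 53.9 CPM. Both hairpin libraries lay above WT, the second further, at 113% and 145% of it. The log2 change was 0.36 ± 0.19 (SE) and did not pass (adjusted p = 0.271 by edgeR), and it was 0.23 with the GC spline removed. The ratio of UHRF1 to UHRF2 per transcript length was 1.08 in WT, 0.420 with shRNA 1 and 0.345 with shRNA 2. On the log2 scale the ratio was lower than in WT by amounts of −1.36 and −1.64, which do not depend on the lengths used. The ratio itself does: with the summed length of all annotated exons it was 2.60, 1.01 and 0.831. With the GC spline removed, UHRF1 was at −1.05 with shRNA 1 and −0.91 with shRNA 2, and UHRF2 at 0.06 and 0.37. The ratio then fell by less in both hairpin libraries. Whether the pair's changes differ was not tested.

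DNMT3A and DNMT3B, the methyltransferases for unmarked sites, had very unequal levels. DNMT3A (ENSG00000119772, chr2:25227855-25342590, minus strand) was the least abundant member, with 86 counts in WT, 113 with shRNA 1 and 124 with shRNA 2. This was 8.62 CPM in WT and 10.4 ± 0.782 CPM in knockdown (SD, n = 2), with WT lowest. Its log2 change, 0.27 ± 0.26 (SE), did not pass (adjusted p = 0.573 by edgeR) and was 0.41 with the GC spline removed, and its SE was the largest of the 9.

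DNMT3B (ENSG00000088305, chr20:32762385-32809356, plus strand) had 638 counts in WT, 663 with shRNA 1 and 445 with shRNA 2, or 63.9, 57.8 and 39.3 CPM. The shRNA 1 library was close to WT at 90.4% of it, and the shRNA 2 library stood apart at 61.5%. The fitted log2 change of −0.40 ± 0.20 (SE) did not pass (adjusted p = 0.240 by edgeR) and rests mostly on shRNA 2, as it was −0.15 with shRNA 1 alone and −0.70 with shRNA 2 alone. With the GC spline removed the fitted change was −0.25.

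**Figure D2:**
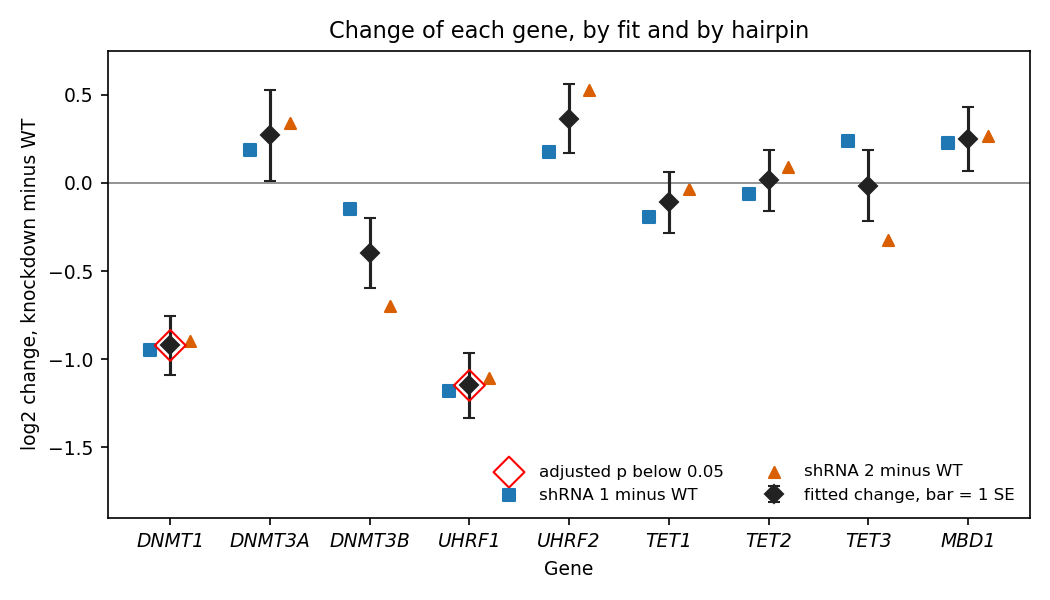
Log2 change of each gene, knockdown minus WT: black diamonds give the fitted change with a bar of 1 SE, blue squares and orange triangles the single hairpin libraries minus WT, and red outlines an adjusted p below 0.05. The 2 outlined genes are DNMT1 and UHRF1, and the hairpin points lie furthest apart for TET3 and DNMT3B.

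The TET genes were close to WT on average. TET1 (ENSG00000138336, chr10:68560656-68694482, plus strand) binds CpG-rich DNA through a CXXC domain and had 630 counts in WT, 634 with shRNA 1 and 699 with shRNA 2. Its levels were 63.1, 55.2 and 61.7 CPM, all within a narrow range, and the log2 change was −0.11 ± 0.17 (SE; adjusted p = 0.751 by edgeR). With the GC spline removed the change was −0.33, still short of the threshold (adjusted p = 0.331 by edgeR).

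TET2 (ENSG00000168769, chr4:105145875-105279816, plus strand), which lacks such a domain and is a frequent site of mutation in myeloid malignancies, had 755, 830 and 911 counts. At 75.6, 72.3 and 80.5 CPM, WT lay between the hairpin libraries. The change of 0.01 ± 0.17 (SE) on the log2 scale did not pass (adjusted p = 0.972 by edgeR), and its sign flipped under every GC correction and with a mean count of at least 50.

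TET3 (ENSG00000187605, chr2:73986404-74108176, plus strand) is the oxidase known for acting on the paternal genome after fertilisation. It had 764 counts in WT, 1035 with shRNA 1 and 692 with shRNA 2, or 76.5, 90.2 and 61.1 CPM. The hairpin libraries lay on opposite sides of WT, at 118% and 79.8% of it, so the fitted log2 change of −0.02 ± 0.20 (SE) is a mean of unlike values. It did not pass (adjusted p = 0.972 by edgeR), and its sign flipped under library size scaling and every GC correction.

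MBD1 (ENSG00000141644, chr18:50266882-50281774, minus strand) binds methylated CpG and is known to bring the histone methyltransferase SETDB1 to it. Its counts were 368, 495 and 503 in WT, shRNA 1 and shRNA 2, and its levels 36.9, 43.1 and 44.4 CPM. The hairpin libraries lay close together above WT, at a mean of 119% ± 2.48 of it (SD, n = 2), and the log2 change was 0.25 ± 0.18 (SE; adjusted p = 0.443 by edgeR).

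Between the hairpins, DNMT3B and TET3 differed most. The level with shRNA 2 was 0.680 of that with shRNA 1 for DNMT3B, with an exact 95% interval from 0.602 to 0.768. For TET3 it was 0.678, with an interval from 0.615 to 0.747. These intervals cover counting error only and compare 2 libraries, not 2 conditions. The differences were −0.55 and −0.56 on the log2 scale, and 6.44% of 11206 genes averaging 50 counts or more differed by more than 0.5 between the hairpins. The other 7 members differed by less, with UHRF2 next at 1.28 (1.13 to 1.45) in favour of shRNA 2.

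HDAC2 was lower with shRNA 1 than with shRNA 2 (31.7% and 48.9% of WT), while DNMT3B was lower with shRNA 2. Any relation between the 2 genes was not tested, as each hairpin has 1 library. PAX8, a marker of the line, also had a lower level with shRNA 2, at 174 CPM against 250 CPM with shRNA 1, and its part in these differences was not tested. Of 9 tested line markers from a list of 10, PAX8 among them, 4 were below WT in both hairpin libraries and 3 above. By edgeR's test 0 passed. The median log2 change of the 9 against WT was −0.07 with shRNA 1 and −0.0006 with shRNA 2. The summed level of the list, PAX8 included, was 1010 CPM with shRNA 1 and 930 CPM with shRNA 2. With the GC spline removed the hairpin differences were −0.49 for DNMT3B and −0.51 for TET3. For DNMT1 and UHRF1 the hairpins differed by 0.05 and 0.07 on the log2 scale.

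Levels can be compared between genes only per length, here as CPM per kilobase of each gene's longest coding transcript in GENCODE 29. In WT the order was DNMT1 at 37.4, DNMT3B at 14.7, UHRF1 at 11.6, UHRF2 at 10.8, MBD1 at 7.52, TET2 at 7.44, TET1 at 6.80, TET3 at 6.72 and DNMT3A at 0.907 CPM per kb. By this length DNMT1 was first and DNMT3A last in every library. UHRF1 was in place 3 in WT, 8 with shRNA 1 and 7 with shRNA 2. UHRF2 was in place 4 in WT, 3 with shRNA 1 and 2 with shRNA 2. With 1 WT library, the spread of the WT order is not known.

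In the knockdown libraries, DNMT1 had 19.7 ± 0.499 CPM per kb (SD, n = 2) and UHRF2 13.9 ± 2.42. DNMT3B followed at 11.2 ± 3.01, and its spread overlapped those of UHRF2 and MBD1. MBD1 (8.92 ± 0.187), TET2 (7.51 ± 0.566), TET3 (6.64 ± 1.80) and TET1 (6.30 ± 0.494) came next, and the spread of TET3 overlapped those of both neighbours. UHRF1 had 5.25 ± 0.194 and DNMT3A 1.09 ± 0.0823. With the summed length of all annotated exons, UHRF2 came to 4.84 and DNMT1 to 10.9 CPM per kb in knockdown, so the place of UHRF2 depends on which transcripts the cells make, which the table does not show. By that length DNMT3B, at 12.5 CPM per kb, stood above DNMT1, at 10.7, in the shRNA 1 library.

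**Figure D3:**
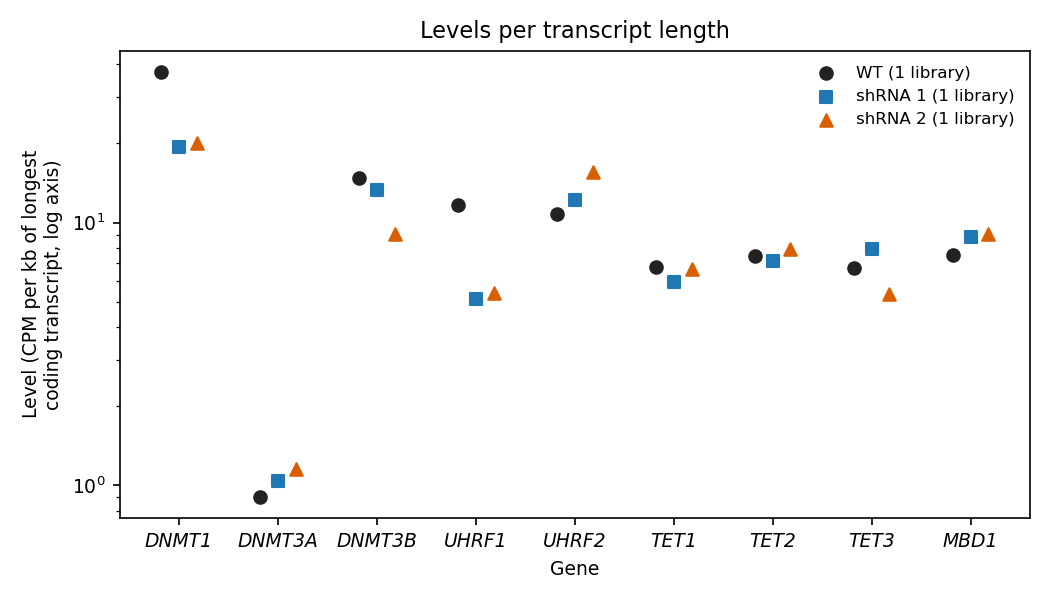
Level per kilobase of the longest coding transcript (CPM per kb, log axis) for the 9 genes, 1 point per library (black circles WT, blue squares shRNA 1, orange triangles shRNA 2). DNMT1 is highest and DNMT3A lowest in each library, and the UHRF1 and UHRF2 points change order between WT and knockdown.

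Summed per length, the 3 methyltransferases came to 53.0 CPM per kb in WT and to 33.7 and 30.3 with shRNA 1 and shRNA 2, and both knockdown sums were below WT. The 3 TET genes summed to 21.0, 21.0 and 19.9 CPM per kb. The ratio of the methyltransferase sum to the TET sum was 2.53 for WT, 1.61 for shRNA 1 and 1.52 for shRNA 2, or 1.99, 1.36 and 1.24 with the exon length. DNMT1 made up 70.5% of the methyltransferase sum in WT and 57.4% and 66.3% with the hairpins, or 58.7%, 44.6% and 54.1% with the exon length, by which DNMT3B was the larger part with shRNA 1, at 52.0%. DNMT3A was between 1.71% and 3.80% by transcript length. The ratio of DNMT1 to UHRF1 differed little, at 3.21 for WT and 3.79 and 3.73 for the hairpins. These sums and ratios have no test and were not corrected for GC. With the GC spline removed the log2 change of DNMT1 went from −0.92 to −0.74. That of DNMT3B went from −0.40 to −0.25 and that of DNMT3A from 0.27 to 0.41. TET1 went from −0.11 to −0.33, TET2 from 0.01 to −0.13 and TET3 from −0.02 to 0.09.

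Genes around the 9 were read from lists of the same pathway. Over all genes tested, edgeR called 3.96% higher and 3.76% lower, which is the background for each list below. Of 59 tested genes in 5 lists (68 in all), 3 rose and 5 fell. DESeq2's Wald test kept 1 of these 8 calls, that of SHMT1, did not call 6 and gave GADD45A no adjusted p. Among other writers and the partners of writers, 1 of 11 tested genes fell and 0 rose, with a median log2 change of −0.15. It was LIG1, the ligase that joins Okazaki fragments and a known partner of UHRF1, at −0.75 ± 0.19 (SE; adjusted p = 0.0175 by edgeR), a call lost with the GC spline removed. PCNA, the sliding clamp that DNMT1 binds, had 485, 306 and 379 CPM in WT, shRNA 1 and shRNA 2 and did not pass (log2 −0.50, adjusted p = 0.0754 by edgeR), and it is named after its values were seen. DNMT3L, the inactive partner of the DNMT3 enzymes, had 0 counts in each library.

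Of 15 tested genes of base excision and oxidation support, 2 rose and 2 fell, and the median was 0.12 (0.19 with the GC spline removed). GADD45A, a stress-induced p53 target linked to demethylation, rose 2.39-fold (log2 1.25 ± 0.25, SE; adjusted p = 0.00400 by edgeR), from 66 counts in WT to 180 in each hairpin library. TDG, the glycosylase that removes the bases TET enzymes make, rose 1.57-fold (log2 0.65 ± 0.18, SE; adjusted p = 0.0330 by edgeR). NEIL3, a glycosylase of dividing cells, fell to 0.479 of WT (adjusted p = 0.00330 by edgeR), and IDH2, the mitochondrial isocitrate dehydrogenase, fell to 0.670 (adjusted p = 0.0373 by edgeR). With the GC spline removed NEIL3 alone of these 4 passed (log2 −1.27, adjusted p = 0.0477 by edgeR). The change of GADD45A was then 1.34 (adjusted p = 0.0538 by edgeR), that of TDG 0.39 and that of IDH2 −0.38.

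The list of readers other than MBD1 also holds genes that act with them, such as the corepressor TRIM28. Among its 13 tested genes, 1 rose and 1 fell, with a median of 0.05 (0.01 with the GC spline removed). ZBTB33, which encodes the methyl-CpG binder Kaiso, rose 1.85-fold, from 260 counts in WT to 550 and 548 (log2 0.89 ± 0.19, SE; adjusted p = 0.00657 by edgeR). TRIM28, the corepressor that keeps imprints methylated, fell to 0.662 of WT (log2 −0.60 ± 0.17, SE; adjusted p = 0.0369 by edgeR). Both calls were lost with the GC spline removed, at log2 changes of 0.54 and −0.28.

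Of the 6 binders of unmethylated CpG, 0 passed, 3 had an unadjusted p below 0.05 by edgeR (23.5% of all genes tested did), and DESeq2's Wald test called 0 of the 5 to which it gave an adjusted p. Both hairpins put all 6 below WT, and both were compared with the same 1 WT library. Over all genes tested, 79.1% lay on one side of WT in both, above or below. The median log2 change of the 6 was −0.43, or −0.18 with the GC spline removed. CXXC1, a subunit of a histone H3 lysine 4 methyltransferase complex, was nearest to the threshold (log2 −0.60, adjusted p = 0.0510 by edgeR) and passed it with library size alone (adjusted p = 0.0494 by edgeR), followed by FBXL19 (log2 −0.51, adjusted p = 0.139 by edgeR). CXXC1 was at −0.33 and FBXL19 at −0.17 with the GC spline removed. Of 14 tested genes of methyl donor metabolism, SHMT1, which feeds one-carbon units into the folate cycle, fell to 0.531 of WT (log2 −0.91 ± 0.17, SE; adjusted p = 0.00282 by edgeR), and the other 13 did not pass. With the GC spline removed SHMT1 was at −0.83 and did not pass (adjusted p = 0.0643 by edgeR).

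**Figure D4:**
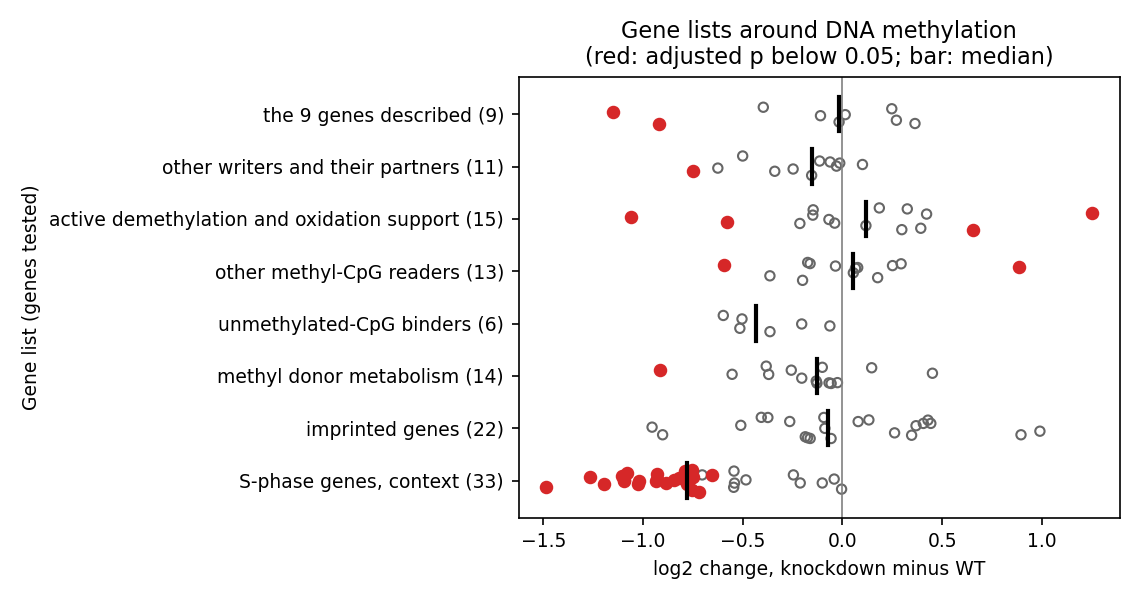
Log2 change (knockdown minus WT) of each tested gene in the 9 genes described, the 5 pathway lists, imprinted genes and S-phase genes, with red points for an adjusted p below 0.05 and a black bar at each median. The S-phase genes lie mostly left of zero with a median of −0.78, and the pathway lists scatter around zero except for the binders of unmethylated CpG at −0.43.

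DNMT1 and UHRF1 are known to be transcribed with the genes of DNA replication, and these fell alongside them. Of 33 S-phase genes tested, 23 fell and 0 rose (14 fell by DESeq2's Wald test and 2 with the GC spline removed). The median log2 change was −0.78, or −0.80 with that spline removed. MCM5 and MCM7, subunits of the replicative helicase, fell to 0.416 and 0.467 of WT, and CDT1, which loads that helicase, to 0.357. The summed level of the list was 3270 CPM in WT, 1786 with shRNA 1 and 2045 with shRNA 2. The part of this shift in the changes of DNMT1 and UHRF1 was not tested. In bulk RNA, fewer cells in S phase and less RNA per cell cannot be told apart.

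Genes whose silencing often depends on methylation were read as well, since the table holds no methylation measurement. Of 42 germline genes found in the table, such as those of the MAGE and GAGE families, 29 had 0 counts in every library. A further 10 had counts but at most 4 in any library, and 3 were tested. Of those 3, 0 passed and 0 had an unadjusted p below 0.05 by edgeR, and DESeq2's Wald test called 0 of the 2 to which it gave an adjusted p. In the order WT, shRNA 1 and shRNA 2, TEX15 held 211, 204 and 226 counts and STAG3 held 20, 28 and 32. PRAME, named after its values were seen, held 1204, 1180 and 1375. STAG3 shares 24.0% of its 75-base sequences with other genes, so its counts are uncertain.

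Of 22 tested imprinted genes, 0 passed, 6 had an unadjusted p below 0.05 by edgeR, against 23.5% of all genes tested, and DESeq2's Wald test called 0 of the 14 to which it gave an adjusted p. The median log2 change was −0.07, or 0.05 with the GC spline removed. SNRPN came nearest, with 86 counts in WT and 132 and 258 with the hairpins (log2 0.99 ± 0.32 SE, adjusted p = 0.0585 by edgeR). It shares 22.2% of its 75-base sequences with SNURF and other genes, so its counts are uncertain. The symbol SNRPN stood in 3 gene rows, and these counts come from a single row. With library size alone SNRPN passed (adjusted p = 0.0160 by edgeR). NAP1L5 had 35, 75 and 74 counts (log2 0.90 ± 0.35, SE; adjusted p = 0.122 by edgeR).

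**Figure D5:**
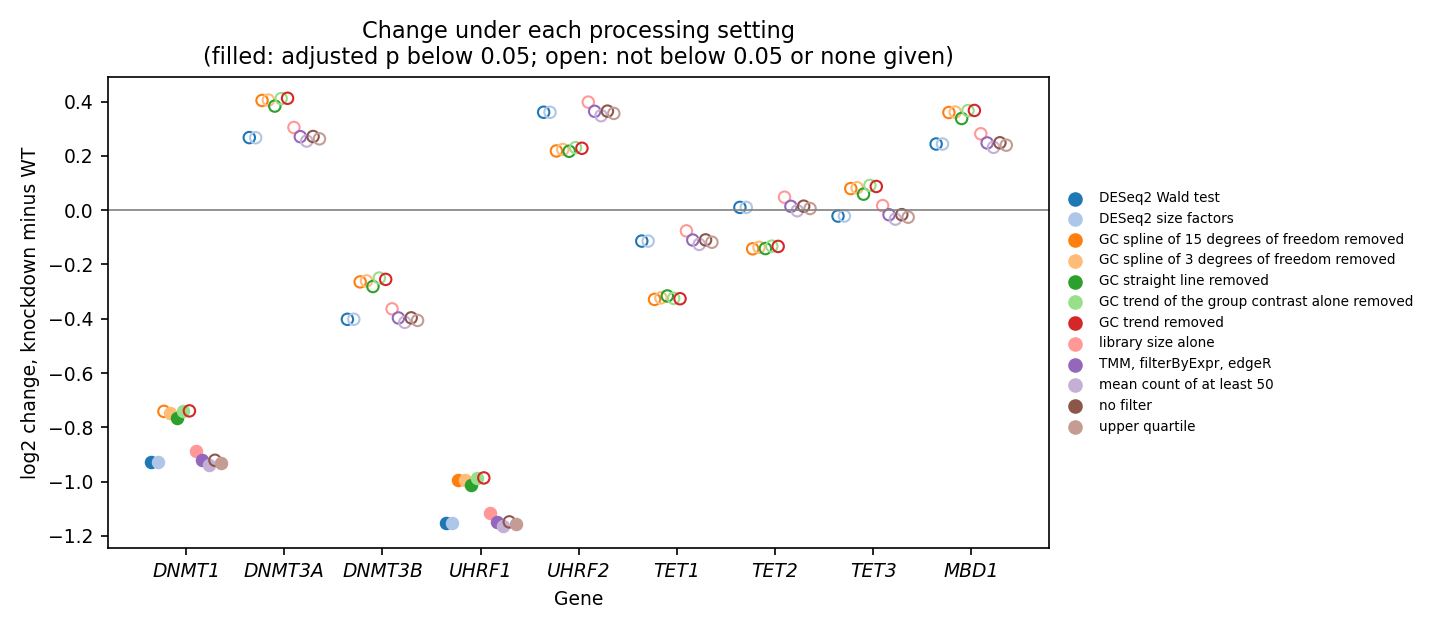
Log2 change of the 9 genes under 12 processing settings, filled where the adjusted p was below 0.05 and open where it was not or none was given. DNMT1 and UHRF1 stay between −0.74 and −1.16 under all 12; both are open under the GC spline of 6 degrees of freedom and without a filter, and DNMT1 also under that of 15, while TET2 and TET3 lie on both sides of zero.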

How the data were processed

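The authors deposited estimated counts per Ensembl gene, already whole numbers, for 3 libraries of 75-base reads; RSEM 1.2.3, edgeR and hg19 are named in the submitters' processing notes without their roles. Strand use and the annotation release are not given in the sources used here. RSEM divides reads that fit several genes, so genes with near copies are less certain. Rounding changed no count.

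Knockdown (n = 2) was compared with WT (n = 1) by edgeR's quasi-likelihood test (edgeR 4.0.16, R 4.3.3) with TMM scaling, filterByExpr and Benjamini-Hochberg adjustment over 14524 genes. The fit had 1 residual degree of freedom and a prior of 18.9 learned over all genes. SE came from the estimate and its F statistic. Hairpin changes are differences of log2 CPM with a prior count of 2. At this depth 3 counts equal 0.263 to 0.296 CPM by library total, which is a conversion and not an estimate of error. A simulation with 14524 genes gave a true change to 200 of them. The test recovered 27.4% of the 62 set to 1.5-fold, 54.3% of the 70 at 2-fold and 88.2% of the 68 at 4-fold. It also called 16 genes that had no change. Even if all 200 had been recovered, 16 would exceed the share of 0.05 that the threshold allows among calls. The real fit called 1121 genes, more than the simulation changed, so its share of false calls may differ. The simulated counts had no GC trend, and the changed genes were drawn only from genes above a count minimum. These rates therefore do not cover the GC trend of the real libraries.

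Names, lengths, GC content (known for 97.9% of tested genes) and shared 75-base sequences came from GENCODE 29 (GRCh38). The planned smooth GC trend was made a spline with 6 degrees of freedom per library when the fit was first written. Alternatives were other scalings and filters, DESeq2 1.42.0, single hairpins, other prior counts, exon length and, chosen after seeing the data, 4 other forms of the GC trend (a line, splines of 3 and 15 degrees of freedom and the trend of the group contrast) and the pseudogene sum. The members and lists were chosen with earlier results of these data known. Genes named beside the 9 members and HDAC2 were, per list, up to 3 rising and 3 falling genes that passed, by adjusted p, or, where none passed, the 2 with the smallest p; others are marked or are markers and genes at 0.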

Additional observations from a re-analysis of the deposited data

How the results depend on the processing

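Both member calls, DNMT1 and UHRF1, held under DESeq2 size factors, library size alone, upper quartile scaling, a higher count minimum, the Wald test and, added after seeing the data, a GC straight line, a GC spline of 3 degrees of freedom, the GC trend of the group contrast alone and the sum of UHRF1 with its pseudogene. With a GC spline of 15 degrees of freedom, also added, 1 passed (UHRF1). With the planned smooth GC trend, a spline of 6 degrees of freedom, and with no filter 0 passed; without a filter the prior was 1.92 degrees of freedom against 18.9. All genes called numbered 1121, against 306 by the Wald test, 65, 338 and 221 with GC splines of 6, 3 and 15 degrees of freedom, 372 with the line, 527 with the contrast trend 1463 with library size alone, 1019 with DESeq2 size factors, 1023 with the upper quartile, 937 at a mean count of 50 or more and 0 without a filter by edgeR (2486 at an unadjusted p below 0.05). Of the pathway genes 8 were called, against 1 by the Wald test, 1 with the GC spline of 6, 0 without a filter, 9 with library size alone and 8 under the other scalings and the higher count minimum. The log2 change of TET2 (0.01) became −0.0021 at a mean count of 50 or more, −0.13, −0.14 and −0.14 with the splines of 6, 3 and 15, −0.14 with the line and −0.13 with the contrast trend. That of TET3 (−0.02) became 0.017 with library size alone, 0.087, 0.083 and 0.080 with the splines, 0.059 with the line and 0.091 with the contrast trend. Beyond the alternatives' own construction, the cause was not tested. Without 1 hairpin, DNMT1 lay between −0.95 and −0.90, UHRF1 between −1.18 and −1.11, DNMT3B between −0.70 and −0.15 and TET3 between −0.32 and 0.24, with no test. No paired analysis was possible because WT has 1 library. In the simulation of this comparison, at this depth and design alone, without a GC trend and on 14524 genes, 27.4% of genes changed 1.5-fold were recovered.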
